A study of Mus musculus with 12 samples.

Results

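The genes described here are Nupr1 and 9 other genes of the integrated stress response, measured in livers of mice with and without REV-ERBα. They are Atf3, Atf4, Atf5, Ddit3, Ddit4, Trib3, Asns, Sesn2 and Ppp1r15a, each found by its symbol among the 38926 gene symbols counted in every library. All 10 were among the 14488 genes with enough reads for a test. Nupr1 was selected on its measured genotype effect at ZT8 (zeitgeber time, hours after lights on), so its values at that time, and every contrast that uses them, are given as a description without a test. The other 9 genes were added as known members or targets of the pathway, with earlier results of these data known. Counts of calls among them are therefore not those of a set chosen blind.

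In the integrated stress response, kinases that sense amino acid shortage, unfolded protein in the endoplasmic reticulum, viral RNA or heme lack phosphorylate the translation initiation factor eIF2. Most translation is then slowed, while the mRNA of the transcription factor ATF4, and those of ATF5 and CHOP, are translated more. ATF4 acts on a composite DNA element and induces further regulators, among them Atf3, Ddit3 (which encodes CHOP), Trib3 and Nupr1, together with enzymes of amino acid supply such as Asns. In liver the pathway is known for its part in the response to a diet short of amino acids, to fasting and to stress of the endoplasmic reticulum.

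REV-ERBα, the product of Nr1d1, is a nuclear receptor of the circadian clock that represses its targets in a daily rhythm. Livers came from wild-type mice and from mice without a functional REV-ERBα (Rev-erbα-/-, Rev KO in the labels), all on a 129Ola and C57BL6 background and 12 weeks old, with 3 mice in each of the 4 groups formed by genotype and time (ZT8, in the light phase, and ZT20, in the dark phase). The deletion was present in every cell of the body from conception, so that an effect in liver cannot be told apart from an effect of other tissues. Poly(A) RNA was sequenced, and the values below are in CPM, that is reads counted on a gene relative to all counted reads of its library, after scaling between libraries.

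Each library held between 17641809 and 26060192 counted reads, and 3 reads corresponded to 0.117 to 0.167 CPM. At ZT8 the label of genotype was checked on Arntl, a clock gene repressed by REV-ERBα, which lay between 22.7 and 25.7 CPM in the Rev-erbα-/- livers at ZT8 and between 0.448 and 0.796 CPM in wild-type. Reads of Nr1d1 itself were not lost (63.0 to 80.6 CPM in Rev-erbα-/- and 75.3 to 128.7 in wild-type at ZT8), so its count does not check the label. By qRT-PCR the authors found no Rev-erbα mRNA in Rev-erbα-/- livers. A count over the whole gene does not show which exons the reads come from, and this difference was not tested. At ZT20 neither gene checks it, since Arntl lay at 43.0 to 45.3 CPM in wild-type and 41.1 to 45.1 CPM in Rev-erbα-/-, and Nr1d1 at 1.86 to 2.28 and 2.09 to 3.57 CPM. The genotype of the 6 livers at ZT20 therefore rests on their labels. The 6 hepatocyte markers summed to between 50310 and 104200 CPM and were present in all 12 livers. Wild-type mice 2 and 3 at ZT8 stood apart from all others, with 12 acute-phase genes summing to 30780 and 38830 CPM against 9446 to 12130 CPM in the other 10 livers. Alignments to more than 1 place numbered 1.76 to 3.28 per counted read at ZT8 and 1.24 to 1.67 at ZT20, and the part of this difference in the contrasts between times was not tested.

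The sequences below are shown because ATF4 is known to act on the composite element CARE, spelled TGATGNAA, and REV-ERBα on the core of the RORE, spelled TAGGTCA or TGGGTCA. Both were searched on both strands in the window from 250 bases before to 50 bases after each gene start (RefSeq, build mm10), which was given for all 10 genes. CARE letters were found in 4 of the 10 genes, against 3.91% of all 32544 promoter windows of that length. In Nupr1 and in Atf3 the match began 110 bases before the start and in Asns 23 bases before it, while in Trib3 it began 14 bases after the start. RORE letters were found in 1 of the 10 genes, Ddit3, 212 bases before the start, against 6.48% of all windows. Each stretch of 30 bases is written 5′ to 3′ on the strand of the gene, with the matched letters in capitals.
Nupr1, chr7:126625562-126625591, minus strand: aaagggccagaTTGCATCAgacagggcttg
Atf3, chr1:191183425-191183454, minus strand: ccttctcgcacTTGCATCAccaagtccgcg
Asns, chr6:7693214-7693243, minus strand: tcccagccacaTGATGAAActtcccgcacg
Ddit3, chr10:127290570-127290599, plus strand: gcgaagccgcgTGACCCAaagccacttccg
The Nupr1 and Atf3 elements carry the same 8 letters, read from the opposite strand of the motif, as is the RORE core in Ddit3. In the GENCODE annotation the Nupr1 and Asns stretches lie in exons of longer transcripts of these genes, the Atf3 stretch lies inside the gene but in no exon, and the Ddit3 stretch lies in an exon of Gm4189 on the other strand. A match of letters describes the sequence and does not show that a factor binds there. The absence of a match in the other windows says nothing about sites elsewhere.

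Nupr1 (chromosome 7, 126623249 to 126630861) encodes a small chromatin-associated protein first known from the inflamed pancreas and induced by many kinds of cell stress. At ZT8 it reached 10.8, 10.7 and 5.00 CPM in the Rev-erbα-/- livers, from 102 to 208 reads. In wild-type it lay at 0.358, 0.199 and 0.305 CPM, from 4 to 9 reads. All Rev-erbα-/- mice were thus far above all wild-type mice, and Rev-erbα-/- mouse 3 was the lowest of its group. At ZT20 the wild-type mice had 0.512, 0.973 and 0.939 CPM and the Rev-erbα-/- mice 0.714, 0.740 and 0.578 CPM, with the groups overlapping.

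The group means of Nupr1 at ZT8 were 8.82 ± 3.31 CPM (SD, n = 3) in Rev-erbα-/- and 0.2875 ± 0.0809 CPM in wild-type, a fitted fold of 29.6 (log2 fold change 4.89, SE 0.365). This difference is the value Nupr1 was chosen by. At ZT20 the log2 fold change was −0.25 (SE 0.389), which did not pass the test (adjusted p = 0.854). The high level was therefore seen in 1 of the 4 groups, and the next group in order, wild-type at ZT20, was 10.9 times lower in its mean and did not overlap with it. The lowest group was wild-type at ZT8, which lay below both groups at ZT20. In bulk liver, more cells that express a gene and more RNA of it per cell cannot be told apart.

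Because Nupr1 is abundant in pancreatic acinar cells, 10 acinar markers were examined in the same livers. Their summed level was 44.9 to 60.6 CPM in Rev-erbα-/- and 26.6 to 29.5 CPM in wild-type at ZT8, and 29.5 to 40.6 and 18.4 to 30.3 CPM at ZT20. Nearly all of it came from the elastase gene Cela1 (402 to 1122 reads per library). Cela2a had 3 to 25 reads, while Cpa1, Prss2 and Amy2a5 had 0 reads in all 12 libraries and the other 5 markers had at most 3 reads in any library.

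**Figure D1:**
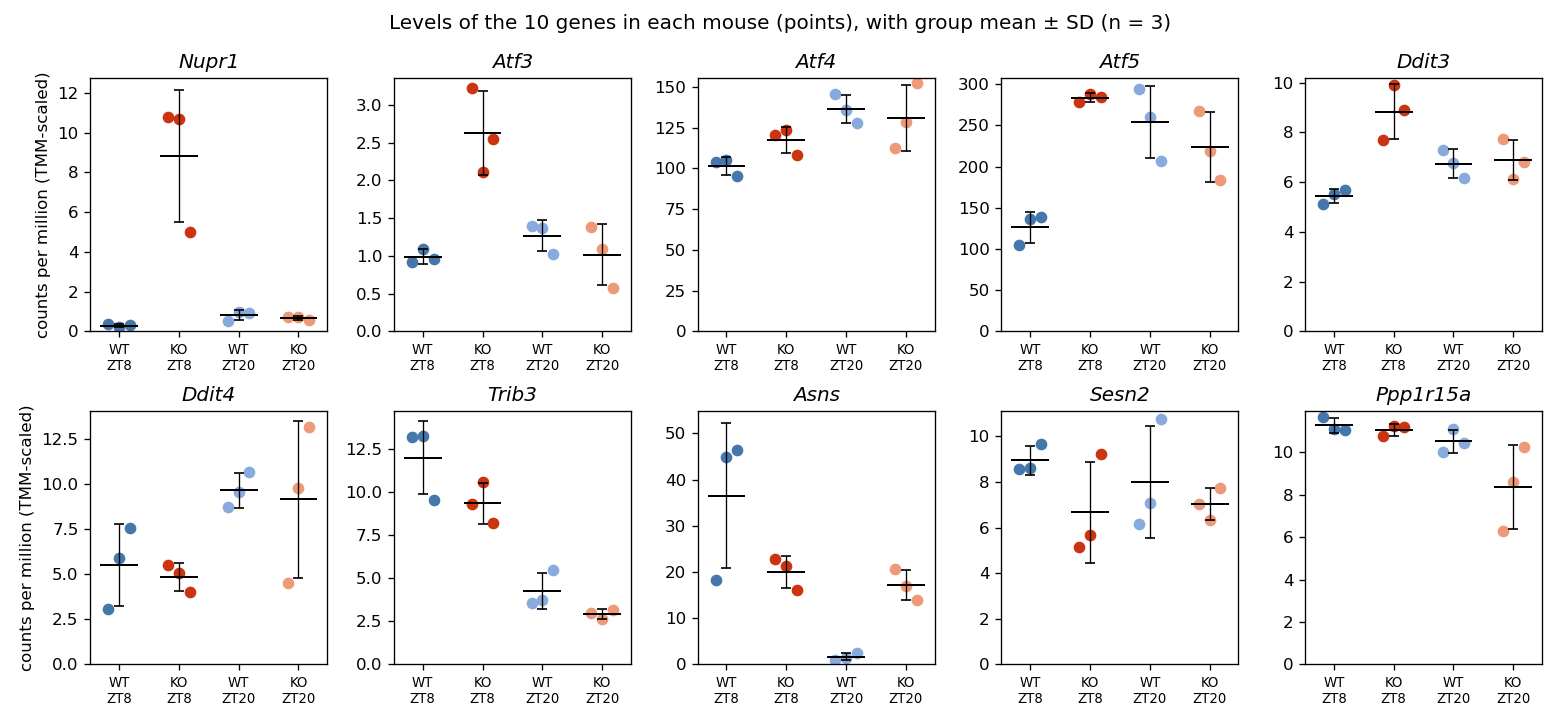
Level of each of the 10 genes (CPM, linear axes from 0) in the 3 mice of each group, with the group mean ± SD; WT is wild-type and KO is Rev-erbα-/-. Nupr1 and Atf3 are high in Rev-erbα-/- at ZT8 alone among the 4 groups, Atf5 is low in wild-type at ZT8 alone, and Asns is low in wild-type at ZT20 alone.

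Atf4, the transcription factor at the centre of the pathway, is controlled mostly at translation, which RNA counts do not show. Its mRNA was 120, 124 and 108 CPM in Rev-erbα-/- and 104, 105 and 95.2 CPM in wild-type at ZT8. All knockout mice lay above all wild-type mice, by a small margin. The log2 fold change was 0.21 (SE 0.0991) and did not pass the test (adjusted p = 0.214). At ZT20 the values were 112, 128 and 152 CPM against 145, 136 and 128 CPM, overlapping, with a log2 fold change of −0.06 (SE 0.0985, adjusted p = 0.866).

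Atf5 encodes a liver-enriched relative of ATF4 whose mRNA is also translated more when eIF2 is phosphorylated. At ZT8 it had 278, 288 and 284 CPM in Rev-erbα-/- and 104, 136 and 138 CPM in wild-type. The knockout mice were close to one another and all above the wild-type mice. Atf5 was 2.24 times higher in Rev-erbα-/- (log2 fold change 1.17, SE 0.154, adjusted p = 0.000529). At ZT20 the wild-type mice had 294, 260 and 207 CPM and the Rev-erbα-/- mice 268, 219 and 183 CPM. These groups overlapped, and the log2 fold change of −0.18 (SE 0.151) did not pass the test (adjusted p = 0.661). The group that stood apart was wild-type at ZT8, whose mean of 126.4 CPM was 1.77 times below the next.

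Atf3, an inducible repressor that is itself a target of ATF4, was measured from few reads. The Rev-erbα-/- livers at ZT8 had 3.22, 2.11 and 2.55 CPM and the wild-type livers 0.915, 1.10 and 0.966 CPM, without overlap. Atf3 was 2.65 times higher in Rev-erbα-/- (log2 fold change 1.40, SE 0.284, adjusted p = 0.00654). At ZT20 the levels were 1.39, 1.09 and 0.578 CPM in Rev-erbα-/- and 1.40, 1.37 and 1.03 CPM in wild-type, which overlapped (log2 fold change −0.30, SE 0.296, adjusted p = 0.726). As for Nupr1, the knockout group at ZT8 was above the other 3 groups, by 2.08 times over the next in mean.

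Ddit3 encodes CHOP, which acts with ATF4 and promotes cell death under lasting stress. At ZT8 it stood at 7.69, 9.89 and 8.91 CPM in Rev-erbα-/- and at 5.13, 5.53 and 5.69 CPM in wild-type, again without overlap. Ddit3 was 1.62 times higher in Rev-erbα-/- (log2 fold change 0.70, SE 0.133, adjusted p = 0.00433). At ZT20 the knockout mice had 7.72, 6.12 and 6.80 CPM and the wild-type mice 7.30, 6.77 and 6.17 CPM. The groups overlapped there (log2 fold change 0.03, SE 0.13, adjusted p = 0.96). Of the Ddit3 exons, 3.97% are shared with Mars on the other strand, and reads in such stretches were not counted. For Atf5 the shared part with Il4i1 and with Nup62 is 4.11%.

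Of the 9 genes other than Nupr1, 3 were called higher in Rev-erbα-/- at ZT8 (Atf3, Atf5 and Ddit3) and 0 lower by edgeR. At an unadjusted p under 0.05, 2 were lower, and DESeq2 called 0 lower. Among all 14488 genes, 8.45% were called at this time, 4.40% higher and 4.04% lower. The median log2 fold change of the 9 genes was −0.0273, against 0.00177 for all genes. Without both wild-type livers with raised acute-phase genes, which leaves a single wild-type mouse assumed to vary like the other groups, 1 of the 9 was called, against 2.29% of all genes. The call that was left was Atf5 (log2 fold change 1.44, adjusted p = 0.00598). For Atf3 (1.51, adjusted p = 0.0933) and Ddit3 (0.777, adjusted p = 0.0603) the fold changes were at least as large as with all mice, but the calls were lost. Leaving out any single mouse gave 3 or 4 calls.

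**Figure D2:**
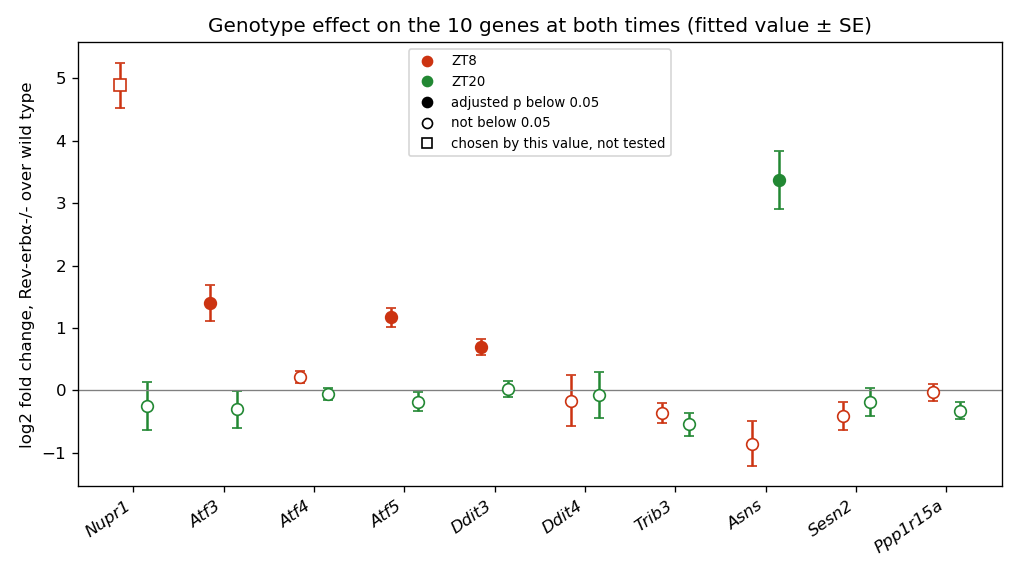
Fitted log2 fold change of Rev-erbα-/- over wild-type for each of the 10 genes at ZT8 and ZT20, with bars of 1 SE; filled points have an adjusted p below 0.05 and the square marks the value Nupr1 was chosen by. Atf3, Atf5 and Ddit3 are called at ZT8 (1.40, 1.17 and 0.70), and Asns is called at ZT20 (3.37).

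Asns encodes asparagine synthetase, the enzyme that makes asparagine, and is a standard target of ATF4. At ZT20 it had 20.6, 17.1 and 14.1 CPM in Rev-erbα-/- and 1.02, 1.42 and 2.55 CPM in wild-type. Every liver labelled knockout was thus several times above every wild-type liver, with the genotype at this time taken from the labels alone. Asns was 10.3 times higher in Rev-erbα-/- (log2 fold change 3.37, SE 0.466, adjusted p = 0.00504). Across the alternatives and with each mouse left out in turn, the log2 fold change stayed between 3.12 and 3.82 and the adjusted p did not exceed 0.0364.

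Asns was the 1 gene of 10 called at ZT20, and it was called higher. By edgeR 0 were lower, with 2 at an unadjusted p under 0.05, and DESeq2 also called 0 lower. Among all genes tested, 3.63% were called at this time, 2.09% higher and 1.54% lower. Nupr1 is counted among these 10, since its effect at ZT20 was not used to choose it. The median log2 fold change of the 10 genes was −0.18, with 1 gene, Asns, above 1.

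At ZT8 the order of Asns was the other way, with 22.8, 21.3 and 16.2 CPM in Rev-erbα-/- and 18.4, 44.8 and 46.3 CPM in wild-type. The groups overlapped because wild-type mouse 1 lay among the knockout mice. The log2 fold change was −0.86 (SE 0.359, adjusted p = 0.191). It became −1.19 (adjusted p = 0.00727) when wild-type mouse 1 was left out, and 0.12 (adjusted p = 0.922) when wild-type mice 2 and 3 were left out. These 2 mice, with the highest Asns of all 12, were the livers with raised acute-phase genes. In the same livers Slc38a2, an amino acid transporter, stood at 251 and 331 CPM against 88.4 to 147.9 CPM in the other 10. Chac1, an enzyme of glutathione breakdown, stood at 5.58 and 10.1 CPM against 0.915 to 3.95 CPM. Both are targets of ATF4 and were picked out after their values were seen. Not every ATF4 target was raised there. Cth, from the same list, had 207 and 162 CPM in wild-type mice 2 and 3, the lowest of all 12 livers. Trib3 had 13.3 and 9.56 CPM in them, against 13.2 CPM in wild-type mouse 1. The part of the acute-phase difference in the ZT8 values was not tested.

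**Figure D3:**
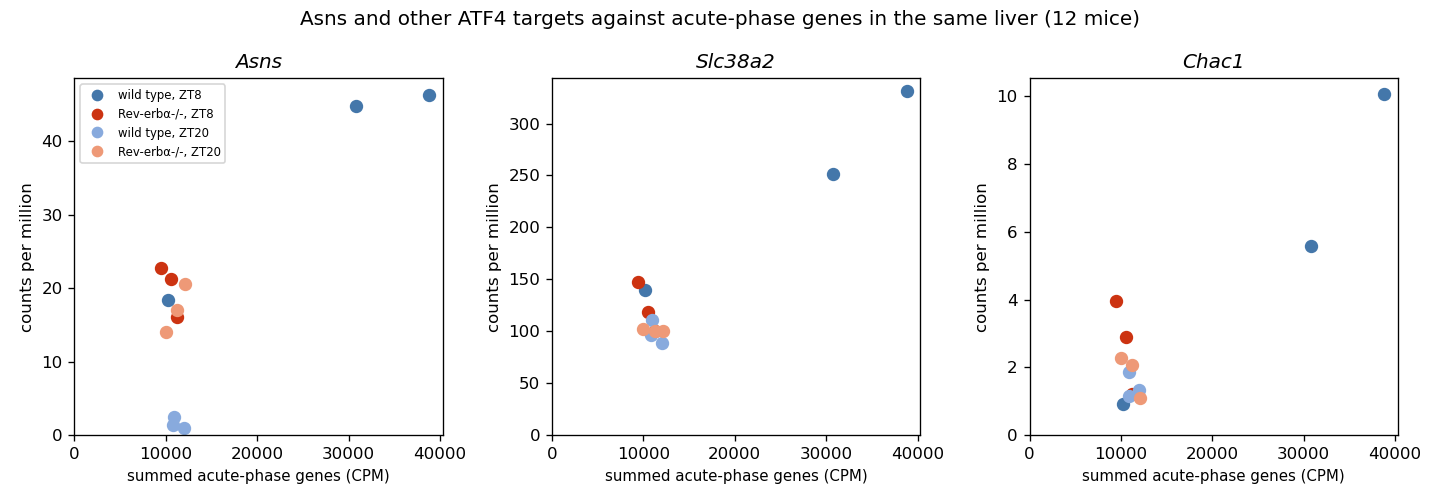
Level of Asns, Slc38a2 and Chac1 (CPM) against the summed level of 12 acute-phase genes (CPM) in each of the 12 livers, coloured by group. Wild-type mice 2 and 3 at ZT8 lie apart, with 30780 and 38830 CPM of acute-phase genes and the highest values of all 3 genes; among the other livers Asns is lowest in wild-type at ZT20.

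Trib3 encodes a pseudokinase that is induced by ATF4 and CHOP and dampens their action. It had 9.30, 10.6 and 8.18 CPM in Rev-erbα-/- and 13.2, 13.3 and 9.56 CPM in wild-type at ZT8, with some overlap. At ZT20 it had 2.98, 2.61 and 3.16 CPM against 3.58, 3.72 and 5.46 CPM, with all knockout mice below all wild-type mice. The log2 fold changes were −0.36 (SE 0.167, adjusted p = 0.201) and −0.55 (SE 0.192, adjusted p = 0.163), and neither passed the test.

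Ddit4 and Sesn2 encode REDD1 and sestrin 2, stress-induced inhibitors of the growth kinase mTORC1. Ddit4 ranged from 4.02 to 5.51 CPM in Rev-erbα-/- and from 3.06 to 7.58 CPM in wild-type at ZT8, and from 4.53 to 13.2 and 8.75 to 10.7 CPM at ZT20. The mice of a group differed widely here, and the log2 fold changes of −0.17 (SE 0.413) and −0.08 (SE 0.373) had adjusted p of 0.855 and 0.96. Sesn2 had 5.14, 5.67 and 9.21 CPM in Rev-erbα-/- and 8.56, 8.62 and 9.66 CPM in wild-type at ZT8. Knockout mouse 3 lay within the wild-type range, and the other knockout mice lay below it. The log2 fold change was −0.42 (SE 0.226, adjusted p = 0.29), and −0.72 (adjusted p = 0.0448) without knockout mouse 3, which was also the knockout mouse with the least Nupr1. At ZT20 Sesn2 gave −0.18 (SE 0.223, adjusted p = 0.799).

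Ppp1r15a encodes GADD34, which brings phosphatase to eIF2 and so ends the response. It was nearly level at ZT8, with 10.8, 11.2 and 11.2 CPM in Rev-erbα-/- and 11.7, 11.1 and 11.0 CPM in wild-type (log2 fold change −0.03, SE 0.136, adjusted p = 0.93). At ZT20 the knockout mice spread from 6.30 to 10.2 CPM and the wild-type mice from 10.0 to 11.1 CPM. The difference of −0.33 on the log2 scale (SE 0.137) did not pass the test (adjusted p = 0.26).

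The difference of the genotype effect between times was tested in the same fit, as the effect at ZT8 minus that at ZT20. Of the 9 genes, 4 were called, against 5.88% of all genes. Atf3 (log2 difference 1.71, SE 0.411, adjusted p = 0.0225), Atf5 (1.35, SE 0.215, adjusted p = 0.00244) and Ddit3 (0.668, SE 0.186, adjusted p = 0.0468) had a more positive effect at ZT8, as did 3.05% of all genes. Asns had a more negative one (−4.22, SE 0.592, adjusted p = 0.00417), as did 2.83% of all genes. For Nupr1 the difference was 5.14, given without a test because it includes the ZT8 effect that Nupr1 was chosen by.

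The Atf5 and Asns calls held with each mouse left out. The Atf3 call was lost without knockout mouse 1 at ZT8 (1.53, adjusted p = 0.0559), without wild-type mouse 1 at ZT20 (1.64, 0.0582) or without wild-type mouse 2 at ZT20 (1.65, 0.0645). The Ddit3 call was lost in 9 of the 12 cases, with an adjusted p of up to 0.135, and held only without knockout mouse 1 at ZT8, wild-type mouse 3 at ZT20 or knockout mouse 1 at ZT20. With the replicate number as a block the Ddit3 adjusted p was 0.0694, and 3 of the 9 genes were called. Without both wild-type livers with raised acute-phase genes, 2 of the 9 were called, against 3.27% of all genes.

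Between ZT20 and ZT8 in wild-type, 4 of the 9 genes differed, against 27.7% of all genes. Those higher at ZT20 were Atf5, 2.01 times (log2 fold change 1.01, SE 0.153, adjusted p = 0.000347), and Atf4, 1.35 times (0.43, SE 0.099, adjusted p = 0.00462). In this direction 13.8% of all genes were called. Those lower at ZT20 were Asns (−4.44, SE 0.462, adjusted p = 0.000147) and Trib3 (−1.50, SE 0.176, adjusted p = 1.77e-05), against 13.9% of all genes. Without both livers with raised acute-phase genes Asns was still called (−3.46, adjusted p = 0.000201), while the Atf4 call was lost (0.384, adjusted p = 0.114). Ddit3 (0.31, SE 0.134, adjusted p = 0.1) and Ddit4 (0.83, SE 0.39, adjusted p = 0.152) had higher values at ZT20 in all mice and did not pass the test in edgeR. For Ddit4 the call depended on the tool and on 1 mouse of another group, with an adjusted p of 0.0471 in DESeq2 (0.813) and of 0.0371 in edgeR without knockout mouse 1 at ZT20 (0.829).

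Between ZT20 and ZT8 in Rev-erbα-/-, 2 of the 9 genes differed, against 17.5% of all genes. Both were lower at ZT20, namely Trib3 (−1.68, SE 0.184, adjusted p = 2.39e-05) and Atf3 (−1.36, SE 0.279, adjusted p = 0.00383), against 8.67% of all genes in this direction. By edgeR 0 of the 9 were higher, against 8.79% of all genes, with 1 at an unadjusted p under 0.05. This was Ddit4, which DESeq2 called (0.91, adjusted p = 0.034). In edgeR 5 were lower at an unadjusted p under 0.05. Ppp1r15a gave −0.40 (SE 0.137, adjusted p = 0.0561), and was called by DESeq2 (−0.406, adjusted p = 0.0497) and by edgeR without knockout mouse 3 at ZT20 (−0.567, adjusted p = 0.0107). Ddit3 gave −0.36 (SE 0.129, adjusted p = 0.0692), and was called without knockout mouse 1 at ZT8 (−0.447, adjusted p = 0.0415). Atf5 gave −0.34 (SE 0.151, adjusted p = 0.143) and Asns −0.22 (SE 0.364, adjusted p = 0.746). Leaving out knockout mouse 1 at ZT20 raised the count to 4, with Atf5 (−0.50, adjusted p = 0.04) and Ddit4 (1.24, adjusted p = 0.0165) added. Nupr1 had a log2 difference of 1.46 between times in wild-type and of −3.68 in Rev-erbα-/-, both given without a test because they share the ZT8 livers.

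Trib3 was thus lower at ZT20 in both genotypes, and its genotype effect did not differ detectably between times (log2 difference 0.18, SE 0.254, adjusted p = 0.749). Asns was lower at ZT20 in wild-type, and for it the difference between the genotypes in this change was itself called. The order of the 4 group means also differed between the genes. It ran for Asns from wild-type at ZT8 (36.5 ± 15.7 CPM) through knockout at ZT8 (20.1 ± 3.48) and knockout at ZT20 (17.2 ± 3.28) to wild-type at ZT20 (1.66 ± 0.793), and only the last step was free of overlap.

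Levels of different genes can be set side by side only per length of the transcript. The length used here joined all annotated exons of a gene, 2514 bases for Nupr1 with its longer transcripts. Where mainly a shorter transcript is made, the level per kilobase is understated, so the low rank of Nupr1 may depend on this choice. As the mean of the 4 groups per kilobase of exon, Atf5 (111 CPM per kb) and Atf4 (51.5) were the most abundant of the 10 genes, and they were so in all 4 groups. Asns followed at 6.90, a mean of unlike groups, since it was 13.3 CPM per kb in wild-type at ZT8 and 0.608 in wild-type at ZT20, where it lay below Ddit4, Ddit3, Ppp1r15a, Trib3 and Sesn2. Ddit4, Ddit3, Ppp1r15a, Trib3 and Sesn2 lay between 2.21 and 4.16 CPM per kb. Nupr1 (1.05) and Atf3 (0.685) were the lowest, and for Nupr1 this mean rests on the knockout group at ZT8 (3.51 ± 1.32 CPM per kb, against 0.114 ± 0.0322 in wild-type at that time). In the other 3 groups Nupr1 lay below Atf3.

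The wider pathway was examined with lists of known genes that hold none of the 10. Their counts are to be read against the shares of all genes, which were 8.45% called at ZT8 (4.40% higher and 4.04% lower) and 3.63% at ZT20 (2.09% and 1.54%), so that 1 call in a list of this size is near the background. Of 13 genes for the eIF2 kinases, eIF2, the phosphatase subunit Ppp1r15b and the exchange factor eIF2B, 1 rose in Rev-erbα-/- at ZT8, Eif2b4 (log2 fold change 0.36, SE 0.1, adjusted p = 0.0387), and edgeR and DESeq2 called 0 at ZT20, with 2 higher at an unadjusted p under 0.05. The count at ZT8 was 0 on leaving out mouse 2 or 3 of either genotype at ZT8, or mouse 2 of either genotype at ZT20. The kinase genes Eif2ak3, which encodes PERK, and Eif2ak4, which encodes GCN2, were not called.

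Of 18 ATF4 targets of amino acid synthesis and transport, 15 had enough reads for a test. At ZT8, 1 fell in Rev-erbα-/-, the glycine transporter gene Slc6a9 (14.0, 15.3 and 20.8 CPM against 26.3, 29.6 and 30.2 in wild-type; log2 fold change −0.78, SE 0.136, adjusted p = 0.00269). DESeq2 called 2 lower. Leaving out wild-type mouse 1 raised the count to 4, and leaving out wild-type mice 2 and 3 brought it to 0. At ZT20, 2 fell, the mitochondrial Pck2 (−0.72, SE 0.149, adjusted p = 0.013) and the aminotransferase gene Got1 (−0.67, SE 0.156, adjusted p = 0.0333). By edgeR and DESeq2 0 rose, with 3 higher at an unadjusted p under 0.05. The count of 2 held only on leaving out wild-type mouse 1 or 3 at ZT8 or knockout mouse 3 at ZT20, and was otherwise 1, or 0 without knockout mouse 1 at ZT20.

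Of 14 other targets of ATF4 and CHOP, 12 were tested, and Fgf21, the hepatokine of fasting and amino acid shortage, gave the largest changes. It rose at ZT8, to 3.53, 4.17 and 4.31 CPM in Rev-erbα-/- from 0.597, 0.598 and 0.305 CPM in wild-type (log2 fold change 2.97, SE 0.345, adjusted p = 8.26e-05). It fell at ZT20, to 0.210, 0.623 and 0.267 CPM from 2.37, 1.64 and 1.16 CPM (−2.19, SE 0.378, adjusted p = 0.00334). No knockout mouse overlapped with a wild-type mouse at either time, and the difference of the effects was 5.16 (SE 0.511, adjusted p = 2.05e-05). The low groups rest on few reads. In wild-type mouse 3 at ZT8 and knockout mouse 1 at ZT20, 3 reads corresponded to 0.153 and 0.126 CPM. The size of these folds is therefore uncertain. At ZT8 the oxidoreductase gene Ero1l also rose (0.40, SE 0.0985, adjusted p = 0.0212), and Eif4ebp1, an inhibitor of cap-dependent translation, fell (−0.50, SE 0.0931, adjusted p = 0.00363). DESeq2 called 6 genes of this list at ZT8 where edgeR called 3.

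In a list of 13 genes of cytosolic aminoacyl-tRNA synthetases and the tRNA exporter Xpot, the single call was Tars, the threonyl-tRNA synthetase, which rose at ZT8 (143, 145 and 132 CPM against 102, 83.6 and 73.0 in wild-type; 0.70, SE 0.104, adjusted p = 0.000723). At ZT20 edgeR and DESeq2 called 0, with 2 higher at an unadjusted p under 0.05. Of 15 genes of the XBP1 and ATF6 arms, which act beside the eIF2 arm in stress of the endoplasmic reticulum, 3 rose at ZT8. They were the chaperone genes Hspa5 (0.61, SE 0.165, adjusted p = 0.0337) and Dnajb9 (0.63, SE 0.0954, adjusted p = 0.000759) and the ubiquitin ligase gene Syvn1 (0.43, SE 0.116, adjusted p = 0.0351). The count was 1 without wild-type mouse 2 at ZT8, knockout mouse 2 or 3 at ZT8, or knockout mouse 2 at ZT20, and 0 without wild-type mice 2 and 3 at ZT8. At ZT20, 1 fell, Herpud1 (−0.56, SE 0.138, adjusted p = 0.037), and the count was 0 on leaving out mouse 2 of either genotype at ZT8, wild-type mouse 1 or 2 at ZT20, or any knockout mouse at ZT20. Between times, 10 of these 15 genes were higher at ZT20 in wild-type and 9 in Rev-erbα-/-, against the 13.8% and 8.79% of all genes given above.

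**Figure D4:**
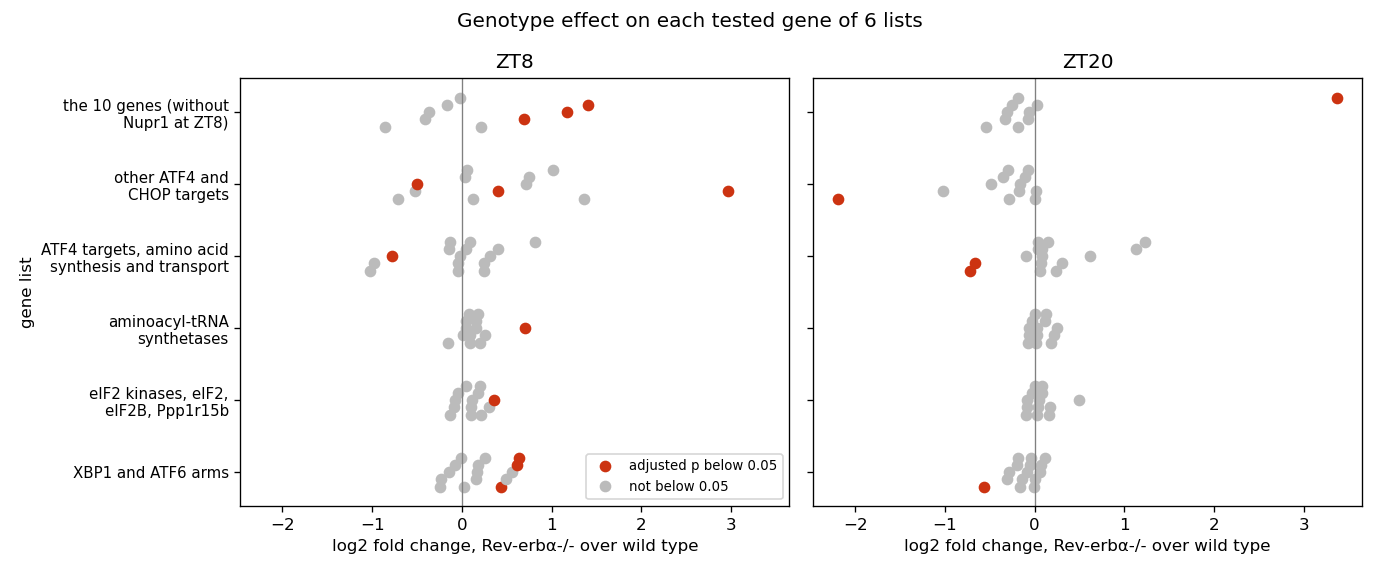
Fitted log2 fold change of Rev-erbα-/- over wild-type for each tested gene of 6 lists at ZT8 and ZT20; red points have an adjusted p below 0.05. The far points are Asns at ZT20 (3.37) and Fgf21, which lies at 2.97 at ZT8 and at −2.19 at ZT20, while most genes of the lists lie near 0.

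The genes whose levels were most like those of Nupr1 over the 12 livers were found by Pearson's r on log2(CPM + 0.5), among 12681 genes with a mean of at least 1 CPM. The values describe 12 libraries in 4 groups, which share the contrast Nupr1 was chosen by. Grk5, a kinase of G-protein-coupled receptors, was first (r = 0.984), with group means of 3.41 CPM in wild-type and 11.6 CPM in Rev-erbα-/- at ZT8, and 4.43 and 4.21 CPM at ZT20. Arhgef19 came next (r = 0.943, 36.3 and 96.4 CPM at ZT8, 40.5 and 44.1 CPM at ZT20). The other 8 were B2m, Glt28d2, Gm6206, Usp6nl, Gm5776, Srsf6, Ubxn1 and Nim1, with r from 0.892 to 0.941. The predicted genes Gm6206 and Gm5776 may share sequence with other loci and are uncertain.

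By Pearson's r Atf3 was the stress response gene most like Nupr1 (r = 0.866, rank 23), followed by Ddit3 (r = 0.801, rank 89) and Atf5 (r = 0.625, rank 644). Trib3 (0.261), Ppp1r15a (0.200), Asns (0.109) and Atf4 (0.0581) showed little likeness, and Ddit4 (−0.311) and Sesn2 (−0.512) had negative values. By Spearman's rho the order differed, with 0.720 for Ddit3 and 0.657 for both Atf3 and Atf5, and Trib3 (−0.175) and Asns (−0.182) had negative values. By both measures the 3 genes called higher at ZT8 had the highest values of the 9, and these statements rest on the same ZT8 livers.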

How the data were processed

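Liver RNA of 12 mice was analysed, 3 for each genotype and time, as the labels give them. The authors prepared poly(A) libraries, sequenced 75 bases, mapped to mm10 with TopHat and counted with HTSeq (union mode, alignment quality of at least 10, no strand). They deposited raw read counts per gene symbol, with no normalization. The annotation release is not given in the sources used here. Reads that fell on more than 1 gene (3.08% to 3.62%) or on none (8.50% to 9.95%) stayed out of library sizes. The percentages are shares of the counted reads and both of these kinds together. Differences below 3 reads cannot be seen, and this floor covers counting error only.

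From the counts, low genes were removed with filterByExpr, libraries were scaled by TMM, and edgeR 4.0.16 (R 4.3.3) fitted 4 group means with robust quasi-likelihood. Every contrast was adjusted by Benjamini-Hochberg over 14488 genes, at 0.05. An exact permutation test of 3 against 3 mice cannot go below 0.1 and was not used. The labels do not say that replicates are separate cages or litters, so that p-values measure the spread between these livers. On simulated counts of 14274 genes, edgeR recovered 96.5% of 200 genes changed 3-fold at ZT8 with 9 false calls, and DESeq2 1.42.0 recovered 97.5% with 23. The changed genes all had a mean above 1 CPM, and the simulation held no livers that stand apart from their group. The rates therefore do not cover smaller changes, lower genes or such livers. Each library counted as a replicate, as labelled. The counts of any pair within a group differed by 7.53 to 141 times the chi-square value of sampling alone. This spread does not by itself show that the libraries are independent mice, and the value of 141 is from wild-type mice 1 and 3 at ZT8. Mice 1 and 3 differed most in every group, by 141 (wild-type) and 48.2 (Rev-erbα-/-) at ZT8, and by 24.9 and 45.2 at ZT20. Deviations of same-numbered mice correlated between −0.0954 and 0.102, with 1 of 18 pairs over 0.1. This measure showed no pairing by replicate number. Whether the numbers follow an order of collection or preparation was not tested.

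The 10 genes and all gene lists were chosen with earlier results of these data known. Named were all 10 genes, the called genes of each list at ZT8 or ZT20 (at most 4 per list and time), Nr1d1, Arntl and the 10 genes most like Nupr1. The kinase genes Eif2ak3 and Eif2ak4 and the acinar markers were named for their role, and Slc38a2, Chac1 and Cth after their values were seen. Positions are from GENCODE M21 (mm10) and promoters from RefSeq. Alternatives were DESeq2, size factors, no filter, at least 10 counts in every sample, only the groups compared, a replicate block, a threshold of 0.01, leaving out each mouse and, chosen after seeing the data, leaving out both wild-type livers with raised acute-phase genes.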

Additional observations from a re-analysis of the deposited data

Results flagged for a closer look

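For 4 genes the effect of genotype differed between the times by a test of the difference itself (edgeR, effect at ZT8 minus effect at ZT20, log2 scale, 3 mice a group). The difference was 1.71 for Atf3, with all 3 Rev-erbα-/- mice above all wild-type mice at ZT8 and overlap at ZT20. It was 1.35 for Atf5 and 0.668 for Ddit3, with the same arrangement of the mice. It was −4.22 for Asns, where all 3 Rev-erbα-/- mice were above all wild-type mice at ZT20 and the groups overlapped at ZT8. The Ddit3 value lies close to the threshold (adjusted p = 0.0468).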

How the results depend on the processing

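Of the 9 genes other than Nupr1, 3 were called between genotypes at ZT8 and 1 without both wild-type livers with raised acute-phase genes. For the difference between times, 4 were called, 2 at an adjusted p under 0.01, 2 without both of those livers, and 2 to 4 with each mouse left out. Between times in Rev-erbα-/-, 2 were called, 4 with DESeq2 and 2 to 4 with each mouse left out. The counts at ZT20 and between times in wild-type stayed within 1.5 times of 1 and 4 under every alternative run. With the replicate block the 5 counts were 3, 1, 3, 4 and 2, and the 1 lost call was Ddit3 in the difference between times. Over all genes, calls at ZT8, at ZT20, for the difference between times, and between times in wild-type and in Rev-erbα-/- numbered 1224, 526, 852, 4018 and 2530. At 0.01 they numbered 472, 223, 357, 2343 and 1231. With each mouse left out they ran from 542 to 1811, 239 to 656, 493 to 1260, 2865 to 4195 and 1566 to 2847. Without both livers ZT8 gave 346, the difference 493 and times in wild-type 1795, and the fit of only the groups compared gave 769 at ZT8.

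Values that changed sign were all uncalled. Without both livers, Asns at ZT8 went from −0.86 to 0.121, Ddit4 at ZT8 from −0.17 to 0.657, and the Ddit4 difference between times from −0.0885 to 0.731, which was 0.0586 with the replicate block. With each mouse left out, Ddit4 lay between −0.475 and 0.137 at ZT8, −0.425 and 0.247 at ZT20, and −0.411 and 0.260 in the difference between times. At ZT20 Atf4 lay between −0.183 and 0.0395, Ddit3 between −0.0639 and 0.108, and Sesn2 between −0.342 and 0.0968. The Trib3 difference between times lay between −0.0494 and 0.292, and Sesn2 between times in Rev-erbα-/- between −0.0831 and 0.381. The causes were not tested. With 3 mice a group and a common biological coefficient of variation of 0.123, smaller changes can be missed, and Nupr1 in wild-type at ZT8 rests on 4 to 9 reads.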

Other observations

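Other lists near the pathway were examined in the same fit. Most of their counts are near the share of all genes called, which was 8.45% at ZT8 and 3.63% at ZT20. Of 14 regulators of mTORC1, Ddit4l, a relative of Ddit4, was higher without REV-ERBα at ZT8 (fitted log2 difference 2.00, SE 0.456, adjusted p = 0.0131), from 0.0508 to 0.279 CPM in wild-type to 0.778 to 0.882 CPM. The lowest of these values, in wild-type mouse 3, lay under the floor of 3 reads (0.153 CPM in that library), so the size of this fold is uncertain. Flcn, the folliculin gene, fell at ZT8 (−0.64, SE 0.0852, adjusted p = 0.000263). Of 14 p53 targets and growth arrest genes, Cdkn1a, the cell cycle inhibitor p21, was the 1 called at ZT8, with 28.3, 32.4 and 42.6 CPM in Rev-erbα-/- and 2.83, 2.69 and 1.93 CPM in wild-type (3.78, SE 0.242, adjusted p = 5.87e-06). At ZT20 it had 24.4, 30.3 and 36.9 CPM against 40.0, 47.7 and 56.6 CPM and was not called. DESeq2 called 4 genes of this list at ZT8, and leaving out wild-type mouse 1 gave 5.

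Of 12 glucocorticoid-induced genes, Tsc22d3 rose at ZT8 (0.55, SE 0.109, adjusted p = 0.00558) and fell at ZT20 (−0.42, SE 0.108, adjusted p = 0.0457). The counts of this list ran from 1 to 4 at ZT8 and from 0 to 1 at ZT20 with each mouse left out. Of 11 immediate-early genes tested, Junb fell at ZT8 (−0.83, SE 0.17, adjusted p = 0.00828) and Ier2 at ZT20 (−0.50, SE 0.129, adjusted p = 0.0461), with counts of 0 to 4 and 0 to 3. Of 12 acute-phase genes, 8 were called lower in Rev-erbα-/- at ZT8, against 4.04% of all genes, among them Saa1 (−6.80, SE 1.44, adjusted p = 0.0251). Saa1 stood at 4972 and 6489 CPM in wild-type mice 2 and 3 at ZT8. It stood at 60.8 CPM in wild-type mouse 1 and at 29.0 to 37.8 CPM in Rev-erbα-/- at that time. The count of 8 became 0 without wild-type mouse 2 or 3 or any Rev-erbα-/- mouse at ZT8. It was 4 or fewer without wild-type mouse 1 or 2 or any Rev-erbα-/- mouse at ZT20.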
